A study of Mus musculus with 21 samples.

Results

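In epididymal white fat of mice with and without a gut microbiota, 5 genes were followed across a day: Sfrp5, Nkd1, Bmp3, Npr3 and Mest. They were taken by symbol from a table of 38087 genes as transcripts known to follow the expansion of fat depots in mice, and all 5 were present and passed the filter on low counts that left 20101 genes for testing. Fat mass, body weight and food intake are not analysed here.

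The tissue was epididymal white fat, the visceral depot attached to the epididymis, from male C57BL/6j mice aged 15-16 weeks with free access to food. In the conventional arm the mice had been raised with a microbiota, and in the germ-free arm without one. Total RNA was sequenced at zeitgeber time (ZT) 2, 6, 10, 14, 18 and 22 h, where ZT0 is lights on, so that under a standard light-dark cycle ZT2 to ZT10 fall in the light, when mice mostly rest, and ZT14 to ZT22 in the dark, when they mostly feed. Conventional fat gave 12 libraries, 2 per time, and germ-free fat 9, of which ZT6, ZT10 and ZT22 had 2 each and ZT2, ZT14 and ZT18 had 1 each. Separate mice are not stated for the libraries of a group, so p-values reflect the spread among libraries, which may be partly technical. For the comparison of the arms within a day, neighbouring times were joined into a morning (ZT2 and ZT6), a dusk (ZT10 and ZT14) and a late-night window (ZT18 and ZT22), each with 4 conventional and 3 germ-free libraries.

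White fat grows when adipocytes take up more triglyceride and when progenitors form new adipocytes. Wnt signals hold progenitors back from this step, and bone morphogenetic proteins (BMPs) push them towards it or away from it depending on the ligand. Sfrp5 is a secreted protein that binds Wnt ligands outside the cell, and Nkd1 is a feedback inhibitor that binds Dishevelled inside it. Bmp3 is a BMP family ligand that antagonises other members of its family. Npr3 is the natriuretic peptide receptor that removes natriuretic peptides, which otherwise promote lipolysis through Npr1. Mest is an imprinted gene, expressed from the paternal copy, that encodes a protein with an alpha/beta-hydrolase fold and has long been used as a marker of fat expansion.

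The genes lie on 5 chromosomes of GRCm38. In the GENCODE M21 annotation Sfrp5 spans chr19:42197971-42202252 on the minus strand, Nkd1 chr8:88521354-88594884 on the plus strand, and Bmp3 chr5:98854415-98884396 on the plus strand. Npr3 spans chr15:11839896-11907287 on the minus strand and Mest chr6:30723547-30748465 on the plus strand. An intron of Mest holds the microRNA gene Mir335, at chr6:30741299-30741396 on the plus strand. Its mature arms from RefSeq (GRCm38.p6) are shown because counts over Mir335 were compared with those over its host below, with the seed, bases 2 to 8, in capitals.
miR-335-5p: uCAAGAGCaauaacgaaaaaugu
miR-335-3p: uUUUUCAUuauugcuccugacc
The 5p arm lies at chr6:30741314-30741336 and the 3p arm at chr6:30741354-30741375.

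The upstream sequences of Sfrp5 and Mest, a pair whose levels were correlated over the conventional libraries and were both lower in germ-free mice late at night, are shown next. Each is the 250 bases before a RefSeq transcription start (GRCm38.p6), read 5′ to 3′ on the gene's own strand, with the GC-box letters GGGCGG in capitals. The Sfrp5 window is chr19:42202253-42202502, minus strand, and the Mest window chr6:30737800-30738049, plus strand.
Sfrp5: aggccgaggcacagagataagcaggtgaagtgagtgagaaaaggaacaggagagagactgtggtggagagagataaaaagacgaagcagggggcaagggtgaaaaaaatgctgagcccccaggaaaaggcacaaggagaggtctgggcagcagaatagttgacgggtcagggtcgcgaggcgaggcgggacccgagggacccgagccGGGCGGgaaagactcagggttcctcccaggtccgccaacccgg
Mest: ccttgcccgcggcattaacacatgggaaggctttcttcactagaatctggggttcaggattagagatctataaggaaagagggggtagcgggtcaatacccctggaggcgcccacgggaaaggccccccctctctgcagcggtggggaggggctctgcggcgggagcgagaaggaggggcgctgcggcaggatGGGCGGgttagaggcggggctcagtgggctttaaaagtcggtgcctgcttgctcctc
RefSeq windows were matched for 4 of the 5 genes, and Bmp3 had no entry. Besides the GC-box, a search of both strands used the E-box letters CACGTG, which read the same on both strands. The nuclear receptor element was searched as AGGTCA and a TCF/LEF core as CTTTGA. The TATA-box was searched as TATAAA, and C/EBP as TTGCNNAA. The printed windows each held 1 GC-box, which 33.0% of 32536 windows of this length hold, and no match to the other 5. GC content was 59.6% with 13 CpG for Sfrp5 and 62.4% with 14 CpG for Mest, against medians of 52.4% and 6 over all windows. Mest has further RefSeq starts that are not printed. The window chr6:30733256-30733505 held a GC-box and a C/EBP match, which 9.57% of all windows hold. The Nkd1 and Npr3 windows held no match to any of the letters searched. A match describes letters only, and no binding was measured.

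Library totals ran from 24388294 to 48348181 counts. Adipocyte markers were high in every library, summing to 28523 to 43894 CPM (counts scaled to a common library size) in the conventional arm and to 30487 to 50528 CPM in the germ-free arm, and none of the 11 was near 0. Adipose progenitor and fibroblast markers summed to 3441 to 5498 CPM and 3449 to 5015 CPM, and 4 of 11 were lower in germ-free fat, led by the collagen gene Col1a1 (log2 -1.34), where 22.9% of all genes passed over the day and 11.1% were lower. Endothelial markers summed to 683 to 1073 CPM and 693 to 1056 CPM, with 4 of 8 higher (such as Kdr at 0.64) and Vwf lower (-1.04). Of the adipocyte markers 2 were higher, Fabp4 (0.35) and Retn (0.46), and of 9 macrophage markers 2 were lower, Itgam (-0.44) and Itgax (-0.53). Macrophage markers summed to 942 to 1524 CPM and 924 to 1740.4 CPM. Among 8 mesothelial markers Wt1 was lower (-0.48), and among 7 mural markers Kcnj8 was higher (0.66). Ciliated duct markers, which belong to the neighbouring reproductive tract, reached 84.9 CPM in a conventional and 209 CPM in a germ-free library, and 5 libraries (3 conventional, 2 germ-free) held more than 5 times the median of 11.1 CPM. One conventional library, ZT10 replicate 2, held 1869 CPM of accessory gland markers. Liver markers reached 787 CPM in conventional ZT2 replicate 2, against a conventional median of 117 CPM. In germ-free fat they reached 546 CPM in ZT14 replicate 2, the single library of that time, against a median of 61.9 CPM. Epididymis and testis markers reached 402 CPM in germ-free ZT22 replicate 2 and 314 CPM in germ-free ZT22 replicate 1. Their highest conventional sum was 97.4 CPM. Germ-free ZT22 replicate 2 also had the highest mural sum, 1286 CPM. With 10.9 CPM of duct markers, it is not among the 5 libraries high in those. The correlation of each library's deviations with exon length across genes had a median rho of 0.104 in conventional and -0.07 in germ-free libraries. The part these differences play in the levels of the 5 genes was not tested, except where a value without those libraries or with a length correction is given. In bulk tissue, fewer cells of a type and less RNA per cell cannot be told apart.

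Per kilobase of exon, Npr3 was the most abundant of the 5, with 207 ± 66.1 CPM per kb in conventional (SD, n = 12) and 132 ± 47.8 in germ-free fat (SD, n = 9). Mest followed at 31.4 ± 16 and 17.7 ± 8.41 CPM per kb. Sfrp5 stood at 14.6 ± 11.7 and 3.46 ± 3.37, Bmp3 at 6.72 ± 4.41 and 6.01 ± 2.6, and Nkd1 at 2.61 ± 0.47 and 2.58 ± 0.679. The lowest Npr3 library, at 65.2, stood above the highest Mest library of its own arm, at 31.1, and in conventional fat the same gap ran from 122 to 69. The ranges of Mest and Sfrp5, and of Sfrp5 and Bmp3, overlapped in both arms. Those of Bmp3 and Nkd1 overlapped in conventional fat and not in germ-free fat, where the lowest Bmp3 library was at 3.87 and the highest Nkd1 library at 3.76. Sfrp5 ranked above Bmp3 in conventional and below it in germ-free fat.

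**Figure D1:**
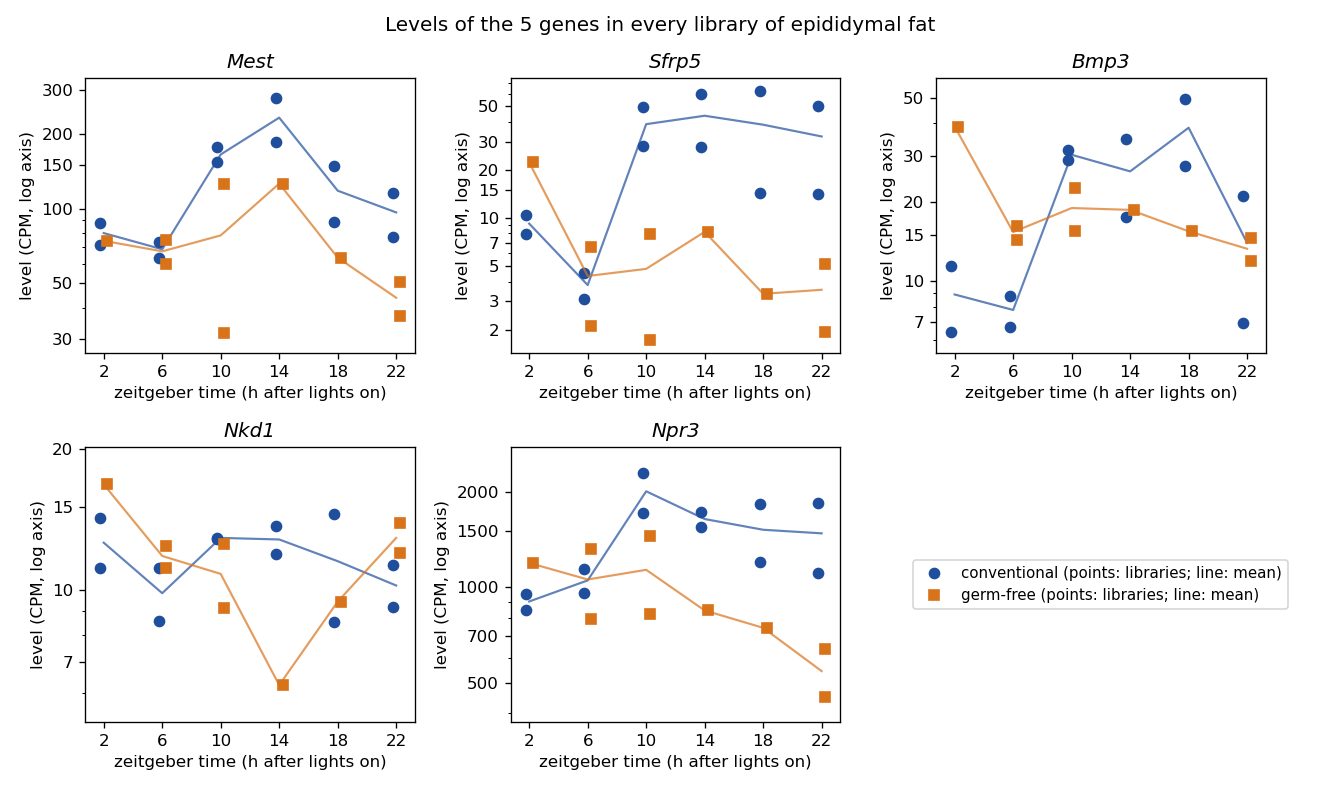
Level of each of the 5 genes in every library (CPM, log axis) against zeitgeber time in hours; points are libraries, lines join the means at each time, and colours mark the arms. Conventional Sfrp5 ran from 3.80 CPM at ZT6 to 43.7 CPM at ZT14 as a mean of 2 libraries, while germ-free Sfrp5 stayed at or below 8.19 CPM except for 22.3 CPM in the single ZT2 library.

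The secreted Wnt antagonist Sfrp5 had the widest gap between the arms of the 5 genes, and it was seen at dusk and late at night. In the morning, conventional libraries had 10.4 and 7.99 CPM at ZT2 and 4.51 and 3.09 CPM at ZT6, and germ-free libraries 22.3 CPM at ZT2 and 6.56 and 2.10 CPM at ZT6. The groups overlapped there, with the highest and the lowest value both germ-free. At dusk, conventional libraries had 28.2 and 49.3 CPM at ZT10 and 59.5 and 27.8 CPM at ZT14, against 1.71 and 7.90 CPM and 8.19 CPM in germ-free fat. Late at night they had 14.4 and 62.4 CPM at ZT18 and 14.2 and 50.6 CPM at ZT22, against 3.35 CPM and 5.18 and 1.92 CPM. In both of these windows all germ-free values were under the lowest conventional value.

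The fold difference in Sfrp5 was 6.99 at dusk (log2 -2.80 ± 0.77 SE, adjusted p = 0.0436) and 10.3 late at night (-3.36 ± 0.80, adjusted p = 0.0106), both by edgeR's quasi-likelihood test with Benjamini-Hochberg adjustment over all 20101 genes. The morning difference was 0.66 ± 0.70 in the other direction (edgeR adjusted p = 0.743). Averaged over the day, with time held as a factor, the level of Sfrp5 was 27.7 ± 22.1 CPM with a microbiota and 6.58 ± 6.41 CPM without, a log2 difference of -1.78 ± 0.64 that missed the threshold of 0.05 (edgeR adjusted p = 0.0544). Without germ-free ZT2 replicate 2 it was -2.40 (edgeR adjusted p = 0.00666). It passed with DESeq2 (-1.77, adjusted p = 0.0078) and in edgeR with time as a cosine and sine (-1.74, adjusted p = 0.049). It passed as well without germ-free ZT6 replicate 1 (-2.07, adjusted p = 0.0247), without conventional ZT2 replicate 1 or 2 or ZT6 replicate 2 (-2.04, -2.03 and -1.99, adjusted p = 0.0345, 0.0301 and 0.0408), and without the 5 libraries high in duct markers (-2.18, adjusted p = 0.0234). These were 8 of 30 alternatives. In the other 22 the difference over the day did not pass, as without germ-free ZT22 replicate 2 (-1.55, edgeR adjusted p = 0.111). Over all 30 the adjusted p ran from 0.00666 to 0.136.

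The late-night call of Sfrp5 was lost without germ-free ZT22 replicate 2 (log2 -3.06, edgeR adjusted p = 0.0738) and held in the other 26 alternatives. The dusk call was closer to the threshold: it was lost with no filter on low counts (adjusted p = 0.0533) and in 11 of the 21 fits that left out 1 library, with adjusted p from 0.0505 to 0.227 and log2 differences still between -2.36 and -3.10. Those 11 were all 7 dusk libraries, conventional ZT6 replicate 1 and ZT22 replicate 2, and germ-free ZT6 replicate 1 and ZT18 replicate 2.

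Nkd1, the Wnt inhibitor inside the cell, was the steadiest of the 5. Conventional libraries ran from 8.5 through a median of 11.6 to 14.5 CPM, and germ-free libraries from 6.24 through 12.0 to 16.8 CPM. The germ-free range enclosed the conventional one. The log2 difference over the day was -0.03 ± 0.15 (edgeR adjusted p = 0.93), and in the 3 windows it was 0.26 ± 0.22, -0.46 ± 0.23 and 0.11 ± 0.23 (edgeR adjusted p = 0.68, 0.247 and 0.783). The value over the day lay between -0.11 and 0.10 when any 1 library was left out.

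Other Wnt genes gave context from lists of the pathway. Each count over the day is read against the 22.9% of all genes that passed and the 11.1% that were lower. Of 12 receptors and co-receptors, 8 were lower in germ-free fat and 4 did not pass, with a median log2 difference of -0.27 against 0.02 over all genes tested. The Wnt5a receptors Ror1 and Ror2 were at -0.54 ± 0.06 and -0.53 ± 0.09 (edgeR adjusted p = 1e-04 and 0.00106), and the co-receptor Lrp6 fell by 0.28 on the log2 scale. Of the 7 other secreted antagonists tested, 0 passed by edgeR, 0 were under an unadjusted p of 0.05 and 0 passed by DESeq2, with Sfrp1 at 0.19 ± 0.23 (adjusted p = 0.643). Among the 8 Wnt ligands 1 passed, Wnt4 at -0.80 ± 0.24 (edgeR adjusted p = 0.0251), a gene at 1.73 CPM in conventional fat. Of 9 intracellular regulators, 2 were lower (Dvl3 at -0.60 and Gsk3b at -0.30), 2 higher (Gsk3a at 0.20 among them) and 5 did not pass. Of 10 target genes of Wnt and beta-catenin, 1 passed: Axin2, itself a feedback inhibitor, at -0.60 ± 0.20 (edgeR adjusted p = 0.0349).

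Bmp3 had a different pattern, with no difference called over the day and opposite signs by window, none of which passed by edgeR. Morning libraries of conventional mice had 6.40 and 11.4 CPM at ZT2 and 8.83 and 6.72 CPM at ZT6, and those of germ-free mice 38.8 CPM at ZT2 and 16.3 and 14.4 CPM at ZT6. Every germ-free library lay above every conventional one. Among all genes, 6.08% showed this separation in the morning, and Bmp3 was the 1 gene of the 5 that did. The log2 difference was 1.47 ± 0.45, a 2.78-fold higher mean level, and it did not pass (edgeR adjusted p = 0.123, and 0.0235 to 0.455 over the alternatives, with the lowest from DESeq2).

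At dusk Bmp3 was at 31.7 and 28.9 CPM and then 34.7 and 17.6 CPM in conventional fat, and at 15.5, 22.6 and 18.7 CPM in germ-free fat. Late at night it was at 27.5 and 49.3 CPM and then 6.96 and 21.1 CPM, against 15.5, 12.0 and 14.6 CPM. The groups overlapped in both windows, each through 1 conventional library that lay among or below the germ-free ones. The log2 differences were -0.58 ± 0.45 and -0.90 ± 0.46 (edgeR adjusted p = 0.478 and 0.207), and over the day 0.15 ± 0.33 (adjusted p = 0.825). Without germ-free ZT2 replicate 2 the value over the day was -0.22 and the morning value 0.88 (edgeR adjusted p = 0.634 and 0.455). Without conventional ZT22 replicate 1 the late-night value was -1.22 and passed (edgeR adjusted p = 0.0365). Without the 5 libraries high in duct markers, 1 of which is conventional ZT18 replicate 2 with the highest Bmp3 level, the late-night value was -0.30 (edgeR adjusted p = 0.702, the highest of its alternatives).

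Within the BMP pathway, 3 of 11 other ligands tested were lower in germ-free fat, 1 was higher and 7 did not pass, where 22.9% of all genes passed and 11.1% were lower. The lower ones included Bmp2, which induces osteogenic and adipogenic genes, at -0.68 ± 0.13 (edgeR adjusted p = 0.00173), and the low-abundance Gdf3 at -2.13 ± 0.59, from 0.314 to 0.0715 CPM. Bmp6 was higher by 0.34 ± 0.10 (edgeR adjusted p = 0.0192). Of 8 receptors 3 were lower, the type I receptors Bmpr1a (-0.20) and Acvr1 (-0.60) and the type II receptor Bmpr2 (-0.24), and 5 did not pass. Of 8 antagonists 3 were lower and 5 did not pass, with Chrdl1 at -0.51 ± 0.12 (edgeR adjusted p = 0.00519) and Chrd at -0.17 ± 0.06 (adjusted p = 0.034) among the lower ones. Of 6 BMP target genes 0 passed by edgeR, 2 were under an unadjusted p of 0.05 and 1 passed by DESeq2, with Id3 at -0.26 ± 0.09 (edgeR adjusted p = 0.0553).

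**Figure D2:**
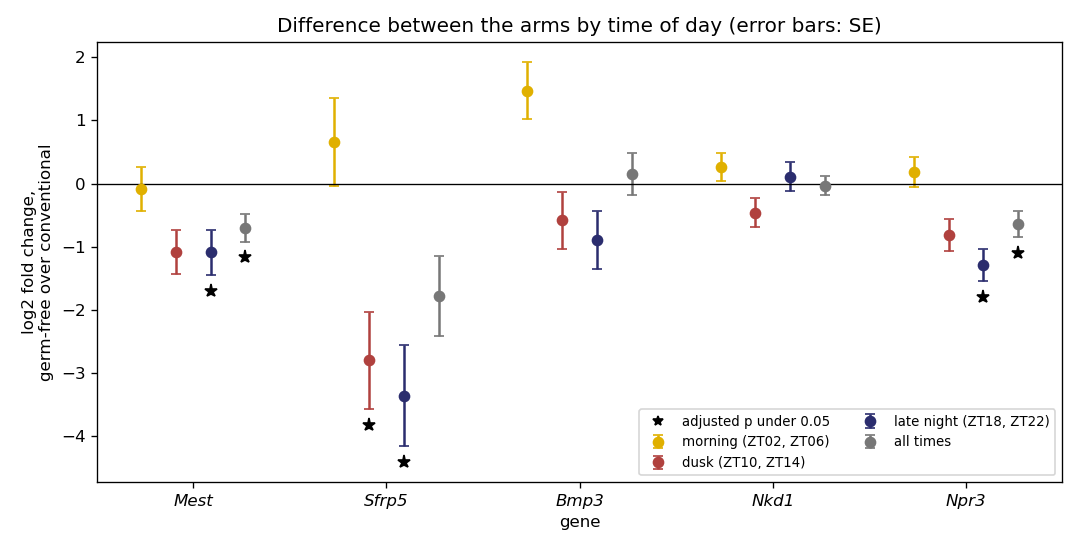
Log2 difference of germ-free from conventional fat for each of the 5 genes over all times and in the morning, dusk and late-night windows, with standard errors from the edgeR fits; 0 means equal levels. Late at night Sfrp5, Npr3 and Mest stood at -3.36, -1.29 and -1.09. Bmp3 stood at 1.47 in the morning and -0.90 late at night, and neither value passed by edgeR.

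The clearance receptor Npr3 gave the firmest of the differences. In the morning conventional libraries had 955 and 848 CPM at ZT2 and 1145 and 958 CPM at ZT6, and germ-free libraries 1193 CPM at ZT2 and 1324 and 792 CPM at ZT6, so that the groups overlapped. At dusk the conventional values were 1714 and 2300.1 CPM and then 1729 and 1552 CPM, against 821 and 1448 CPM and then 845 CPM. Late at night they were 1202 and 1834 CPM and then 1109 and 1848 CPM, against 745 CPM and then 637 and 451 CPM. Germ-free libraries were below all conventional ones in both later windows.

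The late-night difference in Npr3 was 2.45-fold (log2 -1.29 ± 0.25, edgeR adjusted p = 0.00438) and kept its call in each of 27 alternatives, with adjusted p up to 0.0402 without germ-free ZT22 replicate 2. The dusk value of -0.81 ± 0.25 did not pass (edgeR adjusted p = 0.0643), nor did the morning value of 0.18 ± 0.24 (adjusted p = 0.821). It passed at dusk without germ-free ZT10 replicate 2 (-1.13, edgeR adjusted p = 0.0149), within a range of 0.0122 to 0.309 over the alternatives. Over the day the level of Npr3 was 1433 ± 458 CPM with a microbiota and 917 ± 331 CPM without, a log2 difference of -0.64 ± 0.21 that passed (edgeR adjusted p = 0.0345).

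That call over the day was lost with a correction for exon length (-0.56, edgeR adjusted p = 0.0556), with ZT6, ZT10 and ZT22 alone (-0.74, adjusted p = 0.114) and in 9 of 21 fits that left out 1 library (adjusted p from 0.0501 to 0.0906). Those were conventional ZT10, ZT18 and ZT22 replicate 2, germ-free ZT10 and ZT22 replicate 1, and germ-free ZT6, ZT14, ZT18 and ZT22 replicate 2. The value stayed between -0.53 and -0.83. An exon of Npr3 overlaps Gm5144, a non-coding gene on the opposite strand that is not in the count table, and the strand setting of the counting is not given in the sources used here.

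Of 10 other natriuretic peptide pathway genes, 6 passed the filter on low counts, and 0 of these were called between the arms by edgeR or by DESeq2, with 1 under an unadjusted p of 0.05. Of all genes, 22.9% were called over the day by edgeR. The median log2 difference of the 6 genes was -0.03. The signalling receptor Npr2 had 61.0 ± 10.6 CPM with a microbiota and 53.7 ± 13.2 CPM without, a difference of -0.20 ± 0.09 (edgeR adjusted p = 0.146). The other 4 listed genes were at or below 0.1 CPM.

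Mest was lower in germ-free fat over the day and late at night, and in the morning the arms lay within each other's spread. In the morning it was at 71.6 and 87.8 CPM and then 63.5 and 73.7 CPM in conventional fat, and at 74.2 CPM and then 59.6 and 75.0 CPM in germ-free fat. At dusk the conventional values were 154 and 176 CPM and then 278 and 186 CPM, against 31.5 and 125 CPM and then 126 CPM. Late at night they were 88.4 and 148 CPM and then 76.9 and 116 CPM, against 63.5 CPM and then 50.6 and 37.0 CPM. The arms were intermixed in the morning and did not overlap in the later windows.

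The log2 difference in Mest was -0.09 ± 0.35 in the morning, -1.08 ± 0.35 at dusk and -1.09 ± 0.36 late at night (edgeR adjusted p = 0.948, 0.0805 and 0.047). Over the day it was -0.70 ± 0.22, from 127 ± 64.3 to 71.3 ± 33.9 CPM (edgeR adjusted p = 0.0295). Both calls were close to the threshold. Over the day the call was lost without conventional ZT10 or ZT22 replicate 2 (adjusted p = 0.051 and 0.0591) or germ-free ZT14, ZT18 or ZT22 replicate 2 (adjusted p = 0.0661, 0.0713 and 0.0608). The late-night call was lost in 16 of the 21 fits that left out 1 library (edgeR adjusted p from 0.0511 to 0.207), and held without conventional ZT14 or ZT22 replicate 1, germ-free ZT10 replicate 1 or 2, or germ-free ZT14 replicate 2. It was also lost with no filter on low counts (adjusted p = 0.0627), with a correction for exon length (0.05, not under the threshold) and without the 5 libraries high in duct markers (-0.91, edgeR adjusted p = 0.209), 19 of 27 alternatives in all. Over the day the call was lost as well with ZT6, ZT10 and ZT22 alone (-0.74, adjusted p = 0.165).

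Mir335, counted inside the Mest intron, was lower by 0.83 ± 0.29 on the log2 scale (edgeR adjusted p = 0.0491) and was shallow, at 1.21 ± 0.61 CPM with a microbiota and 0.64 ± 0.39 CPM without. Per 100 Mest counts it had a median of 0.912 counts in conventional (0.708 to 1.24) and 0.855 in germ-free libraries (0.627 to 1.31). Reads of a total RNA library over this interval can come from unspliced Mest transcript as well as from the hairpin, and the mature arms printed above were not measured by it. The ranges of the ratio overlapped between the arms.

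The 3′ end of Mest overlaps an exon of Copg2, a coatomer subunit gene on the opposite strand at chr6:30747554-30896794. Copg2 was at 73.5 ± 5.08 CPM and 79.0 ± 5.15 CPM, a log2 difference of 0.10 ± 0.04 (edgeR adjusted p = 0.0864), opposite in sign to that of Mest. Reads in the shared exon cannot be assigned with certainty. Klf14, an imprinted transcription factor gene of the same cluster at chr6:30956023-30959078, expressed from the maternal copy, was lower by 1.80 ± 0.35 on the log2 scale, from 2.86 ± 1.14 to 0.827 ± 0.56 CPM (edgeR adjusted p = 0.00187). Of 22 other imprinted genes tested, Klf14 included, 5 were lower, none higher and 17 did not pass, with a median of -0.13. The share of all genes that passed was 22.9%, with 11.1% lower. Peg10, a paternally expressed gene derived from a retrotransposon, was at -1.18 ± 0.16 (edgeR adjusted p = 0.000186) and Rasgrf1 at -0.73 ± 0.16, while the abundant Nnat was at -0.41 ± 0.28 and did not pass (adjusted p = 0.327).

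**Figure D3:**
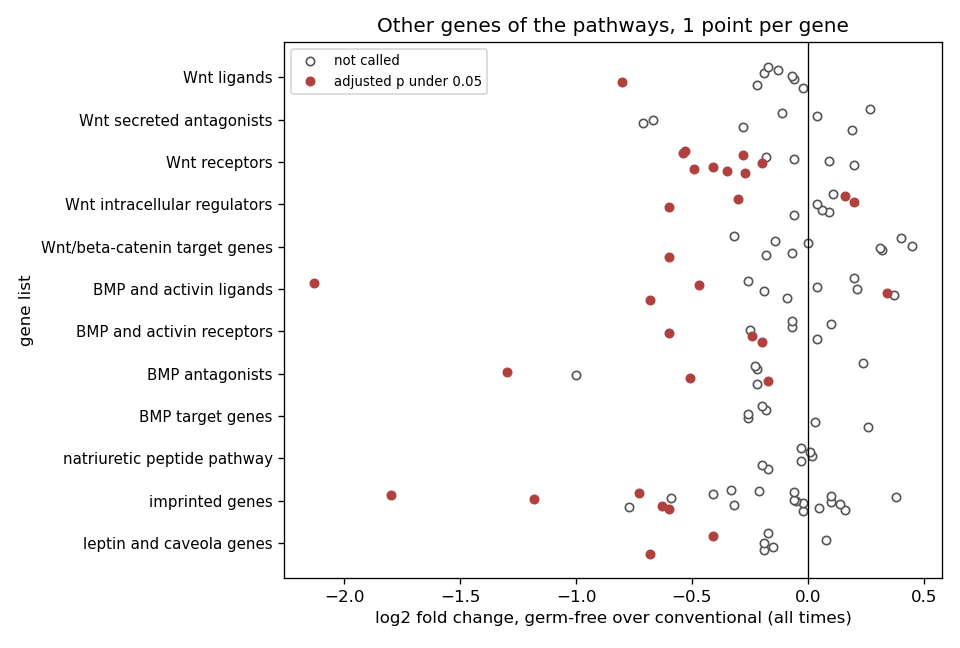
Log2 differences of germ-free from conventional fat for the genes of each pathway list, with 1 point a gene, called and uncalled genes marked apart. The Wnt receptor list had 8 of 12 genes called lower by edgeR, beside 22.9% of all genes called and 11.1% lower; differences between lists were not tested.

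Counted over the 5 genes, 2 passed over the day (Mest and Npr3, both lower in germ-free fat), where 22.9% of all genes passed and 11.1% were lower. None passed in the morning by edgeR, where 0.915% of all genes did. At an unadjusted p under 0.05 it was Bmp3. DESeq2 called Bmp3 there, among 779 of 20101 genes. At dusk 1 passed, Sfrp5, with 5.13% of all genes called and 2.54% lower, and late at night 3 passed, Sfrp5, Npr3 and Mest, with 14.5% called and 7.35% lower. Sfrp5, Npr3 and Mest were below all conventional libraries at dusk and again late at night, a separation that 11.1% and 11.2% of all genes showed in that direction. DESeq2 called 2036 of 20101 genes at dusk, among them the same 3 (adjusted p = 0.00425, 0.0122 and 0.0203).

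Whether the arm difference itself changed between the windows was tested by an interaction over 2 degrees of freedom. The dusk and late-night differences were lower than the morning one by 3.47 and 4.02 on the log2 scale for Sfrp5, by 2.05 and 2.37 for Bmp3 and by 0.99 and 1.47 for Npr3. Unadjusted p-values in edgeR were 0.00189, 0.00305 and 0.00163 for these 3, and 0.0887 and 0.0854 for Mest and Nkd1. After adjustment over all genes none passed (edgeR adjusted p = 0.255, 0.264, 0.247, 0.522 and 0.515). No gene of the 20101 passed by edgeR (0% called), 2154 (10.7%) were under an unadjusted 0.05, and DESeq2 called 328, among them Sfrp5 (adjusted p = 0.0213), Bmp3 (0.019) and Npr3 (0.01). A change of the difference over the day is therefore called for 3 of the 5 by 1 tool and for none by the other.

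Over the day in conventional fat, all 5 genes had their highest mean between ZT10 and ZT18 and their lowest in the morning, with Nkd1 over the narrowest range. As means of 2 libraries, Mest ran from 68.6 CPM at ZT6 to 232 CPM at ZT14, 3.38-fold, and Sfrp5 from 3.80 to 43.7 CPM at the same times, 11.5-fold. Bmp3 ran from 7.78 CPM at ZT6 to 38.4 CPM at ZT18, 4.93-fold, and Npr3 from 902 CPM at ZT2 to 2007 CPM at ZT10, 2.23-fold. Nkd1 ran from 9.82 CPM at ZT6 to 12.9 CPM at ZT10, 1.31-fold. Each ratio takes the extremes of 6 means and is a description without a test.

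A cosine of period 24 h gave conventional amplitudes, the height above the mean on the log2 scale, of 1.51 ± 0.43 for Sfrp5 peaking at 16.0 h, 1.17 ± 0.24 for Bmp3 at 15.0 h, 0.77 ± 0.20 for Mest at 14 h, 0.45 ± 0.15 for Npr3 at 14.2 h and 0.10 ± 0.11 for Nkd1. Unadjusted edgeR p-values were 0.0289, 0.000904, 0.00328, 0.0346 and 0.647. None of the 5 passed after adjustment by edgeR (0.821% of all genes did, and Bmp3 came closest with adjusted p = 0.0779). Under an unadjusted 0.05 were 4 of the 5 (13.3% of all genes). DESeq2 called 810 of 20101 genes, among them Bmp3 and Mest (adjusted p = 0.0012 and 0.0102). Bmp3 passed in edgeR without germ-free ZT2 replicate 2 or conventional ZT14 replicate 2 (adjusted p = 0.0285 and 0.0379), and Mest without germ-free ZT10 replicate 1 (0.0392). Over the alternatives the adjusted p ran from 0.0012 to 0.295 for Bmp3 and from 0.0102 to 0.344 for Mest.

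In germ-free fat, with 9 libraries, the fitted curves differed in shape. Nkd1 had an amplitude of 0.50 ± 0.14 peaking at 2.24 h (edgeR adjusted p = 0.0948), and Npr3 one of 0.48 ± 0.17 peaking at 7.71 h (edgeR adjusted p = 0.212). The amplitudes of Mest, Sfrp5 and Bmp3 were 0.46 ± 0.23, 0.57 ± 0.59 and 0.29 ± 0.30 (edgeR adjusted p = 0.395, 0.735 and 0.79). None of the 5 passed in edgeR, where 4.22% of all genes did, and 2 were under an unadjusted 0.05 (21.2% of all genes). DESeq2 called 2035 of 20101 genes, among them Nkd1 (adjusted p = 0.0256). The difference of the rhythms between the arms had unadjusted edgeR p-values of 0.00529 for Bmp3, 0.0104 for Nkd1, 0.0348 for Npr3, 0.037 for Sfrp5 and 0.368 for Mest. None passed after adjustment (lowest adjusted p = 0.636); of all 20101 genes 0% passed by edgeR, 1500 (7.46%) were under an unadjusted 0.05, and DESeq2 called 40 genes and none of the 5.

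All 5 genes spread more than most genes around the fit of arm and time, Nkd1 the least of them. That fit has no term for an arm difference that changes over the day, so such a change counts as spread here. The biological coefficient of variation (BCV), edgeR's estimate of the spread between libraries beyond counting error, was 0.789 for Sfrp5, 0.482 for Bmp3, 0.329 for Mest, 0.312 for Npr3 and 0.232 for Nkd1. The trend at their levels was 0.184, 0.179, 0.126, 0.148 and 0.23, so that the first 4 were 4.28, 2.69, 2.6 and 2.11 times the trend and Nkd1 1.01 times. Of the 13534 genes whose mean log2 CPM reached 1, 99.3% had a lower BCV than Sfrp5, 97.9% than Bmp3, 95.2% than Mest, 94.4% than Npr3 and 86.6% than Nkd1. For Sfrp5 the replicates at conventional ZT18 were at 14.4 and 62.4 CPM, a ratio of 4.32, and those at germ-free ZT10 at 1.71 and 7.90 CPM, a ratio of 4.62. The library high in Sfrp5 at conventional ZT18 was also the higher of the 2 for Mest, Bmp3, Nkd1 and Npr3, and is 1 of the 5 high in duct markers.

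**Figure D4:**
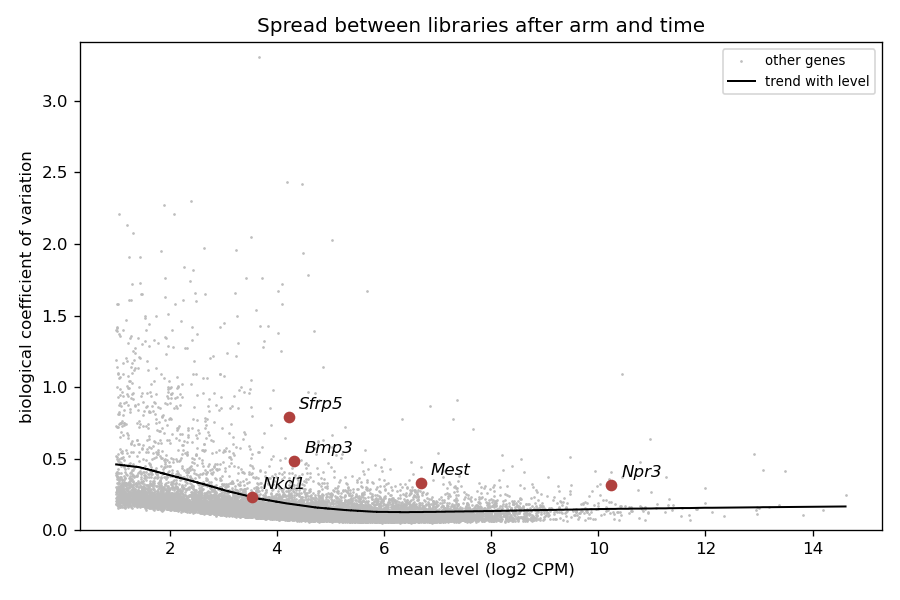
Biological coefficient of variation around the fit of arm and time against mean level (log2 CPM). Each point is a gene, and the line is the trend with level. An arm difference that changes over the day is part of this spread. Sfrp5 (0.789), Bmp3, Mest and Npr3 lie above the trend and Nkd1 (0.232) on it.

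The same libraries were high or low for several of the genes at once. Over the 12 conventional libraries Sfrp5 and Npr3 had Pearson r = 0.87 and Spearman rho = 0.86. Their permutation p-values were 0.00036 and 0.00058, with an adjusted p of 0.0108 for r over 30 relations. Without the 2 libraries farthest from the median of Sfrp5, both of ZT6, r was 0.94. Sfrp5 and Mest had r = 0.83 and rho = 0.80 (permutation p = 0.00106 and 0.00282, adjusted p = 0.0153). Without the 2 libraries farthest from the median of Mest, both of ZT14, r was 0.86. In conventional fat 6 of the 10 pairs of the 5 genes passed, the pairs among Sfrp5, Mest, Bmp3 and Npr3, with r from 0.78 to 0.87, and no pair with Nkd1 did, for which r ran from 0.38 to 0.65. These libraries share their time of day in pairs, so an r over all of them takes in the daily course.

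In germ-free fat 1 of the 10 pairs passed by r, Sfrp5 with Bmp3 (r = 0.79, rho = 0.70, exact permutation p = 0.0106 and 0.0433, adjusted p = 0.0397 for r, n = 9). By rank this pair did not pass (adjusted p = 0.0998 for rho), while Bmp3 with Npr3 did (r = 0.62, rho = 0.83, exact permutation p = 0.076 and 0.00827, adjusted p = 0.142 for r and 0.0413 for rho). For Sfrp5 with Bmp3, r was 0.57 without the 2 libraries farthest from the median of Sfrp5 (exact permutation p = 0.181). It was 0.53 without ZT2 replicate 2 alone. The call was lost in 7 of the 9 sets that left out 1 library (permutation test, adjusted p from 0.0541 to 0.258), and held without ZT10 replicate 1 or ZT22 replicate 1. Germ-free Sfrp5 and Npr3 had r = 0.65 and rho = 0.63 (exact permutation p = 0.0598 and 0.076, adjusted p = 0.142, n = 9). No difference between the arms in these correlations was tested.

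**Figure D5:**
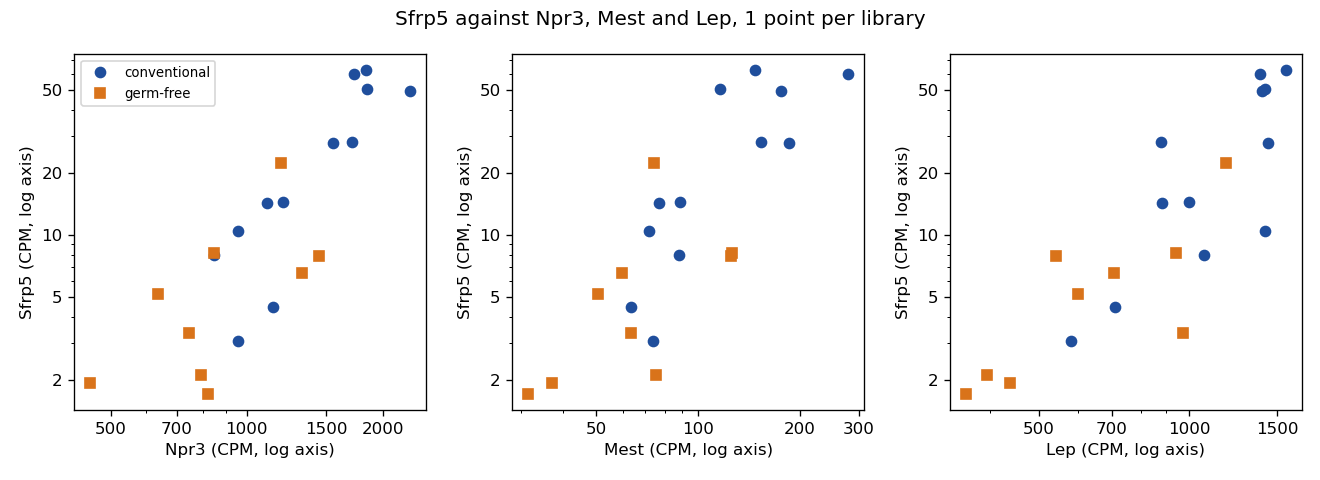
Level of Sfrp5 against the levels of Npr3, Mest and Lep in each library (CPM, log axes), with conventional and germ-free libraries in different colours. Sfrp5 and Npr3 had r = 0.87 over the conventional and 0.65 over the germ-free libraries.

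Differences between 2 libraries of the same arm and time leave the daily course out. There were 9 such pairs of libraries, 6 conventional and 3 germ-free. The library with more Sfrp5 had more Npr3 in 9 of 9, and the log2 ratios of the 2 genes had r = 0.98 over the 9. For Sfrp5 and Mest it was 6 of 9 with r = 0.76, for Sfrp5 and Bmp3 6 of 9 with r = 0.63, and for Sfrp5 and Nkd1 4 of 9 with r = 0.57. These are descriptions without a test, and the sign of each log2 ratio follows the replicate numbers of the titles.

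Leptin (Lep), the hormone that adipocytes secrete in proportion to their fat, was lower by 0.68 ± 0.18 on the log2 scale in germ-free fat, from 1146 ± 331 to 682 ± 291 CPM (edgeR adjusted p = 0.0129). Sfrp5 and Lep had r = 0.80 and rho = 0.67 over the conventional libraries (permutation p = 0.00204 and 0.0201, adjusted p = 0.0153 for r) and r = 0.79 and rho = 0.77 over the germ-free ones (exact permutation p = 0.0125 and 0.0214, adjusted p = 0.0417, n = 9). Without the 2 libraries of each arm farthest from the median of Sfrp5, r was 0.54 and 0.56 (permutation p = 0.111, and exact p = 0.192). The conventional 2 were both libraries of ZT6. In both arms the relation no longer held without these libraries. With 1 library left out it was lost in 7 of 9 germ-free sets, and in conventional fat without ZT6 replicate 2 (permutation test, adjusted p = 0.0583). The other 4 genes did not pass with Lep in either arm. Between libraries of the same arm and time, Lep went with Sfrp5 in 8 of 9 pairs (r = 0.90 of the log2 ratios) and with Npr3 in 8 of 9 (r = 0.96). Of the 7 leptin and caveola genes tested, 2 were lower in germ-free fat and 5 did not pass. Of all genes, 22.9% passed over the day and 11.1% were lower. The 2 lower genes were Lep and the caveola gene Prkcdbp at -0.41 ± 0.12 (edgeR adjusted p = 0.02).

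Outside the 5, the genes whose log2 CPM followed each most closely over the 21 libraries, after each arm's mean was taken out, were as follows. For Sfrp5 they were Rtn2 (r = 0.91), Cyp4v3 (0.89) and Mfge8 (0.88), and for Bmp3 Rtn2 (0.90), Synpo2 (0.88) and Anxa3 (0.87). For Npr3 they were Tln2 (0.91), Fzd4 (0.90) and Gjc1 (0.90), for Mest Ankrd29, Gpc1 and Palm (each 0.84), and for Nkd1 Arap1, Rcan3 and Zfp710 (each 0.82). Rtn2 stood first for both Sfrp5 and Bmp3, and its arm difference of -0.36 ± 0.13 did not pass (edgeR adjusted p = 0.0604). Fzd4, a Wnt receptor on the receptor list, was lower by 0.49 ± 0.12 (edgeR adjusted p = 0.00691). These genes were the highest of the 12151 genes ranked, their r values share libraries and times, and they are given without a test.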

How the data were processed

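Ribosomal RNA was depleted and stranded paired-end libraries were sequenced, per the labels' protocols. The submitters' processing notes name STAR 2.4.0i and mm10. How reads were counted, strand included, is not given in the sources used here. Deposited by the authors were raw read counts over exons per gene, with exon lengths, and the counts were used as deposited. Sample groups came from the labels. Positions came from GENCODE M21 (GRCm38), matched by identifier for 36308 of 38087 genes, and sequences from RefSeq tables of GRCm38.p6.

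Counts were fitted with edgeR 4.0.16 (R 4.3.3): filterByExpr by arm and window left 20101 genes, libraries were scaled by TMM, and quasi-likelihood F tests were adjusted by the Benjamini-Hochberg method over all of them, at a threshold of 0.05. The arms were compared with time as a 6-level factor, within windows in a fit of arm-by-window means, and by a mean, cosine and sine of period 24 h per arm. DESeq2 1.42.0 was an alternative. CPM values are TMM-scaled, levels are mean ± SD and log2 differences carry the standard error. Correlations used log2 CPM (prior count 2) and 2-sided permutation tests computed with numpy 2.4.6, with ranks from scipy 1.17.1. The tests took 100000 resamples over the conventional and all 362880 orders of the germ-free libraries, and were adjusted over 30 relations.

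The 5 genes, the pathway and marker lists and the tests were chosen with earlier results of these data known. All 5 genes were named. Genes named from a list were among its 3 called genes with the smallest p and its most abundant uncalled gene. Several of these, called and uncalled, were not given. Copg2 was named because it overlaps Mest. For each of the 5, the 3 genes with the highest r were named, and Fzd4 was named under this last rule. The value of 1 gene of the lists is not reported here. No 2 libraries held identical counts. On simulated counts over 20101 genes, 79% of genes set to differ between arms by 0.58, and 96% of those by 1, on the log2 scale were recovered, with 8 false calls among 183. The interaction of arm and window recovered 69% at a log2 size of 1 and 91% at 2. The genes set to differ were drawn at random above a log2 CPM of 1, each with its own spread. At least 94.4% of ranked genes had a lower BCV than Sfrp5, Bmp3, Mest or Npr3. These recovery rates therefore do not describe those genes. Alternatives were other size factors, no filter, a length offset, a cosine for time, a replicate block, fewer times and each library left out. The filter by 6-level time and the fits without libraries high in duct markers were chosen after seeing the data.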

Additional observations from a re-analysis of the deposited data

Results flagged for a closer look

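One germ-free library stood far from the other 8 of its arm in 2 of the genes. In ZT2 replicate 2, the single germ-free library of that time, Bmp3 was at 38.8 CPM with the nearest library at 22.6 CPM, a gap of 0.604 of the whole range against a critical value of 0.493 for 9 samples. Sfrp5 was at 22.3 CPM there with the nearest at 8.19 CPM, a gap of 0.685 of the range. Of 20 groups examined 2 exceeded their limit, both through this library. The gaps were taken on CPM rather than log2 CPM, and the germ-free group joined all times of day. How often the limit is passed by chance under these conditions was not tested. Without that library, germ-free Bmp3 was at 16.2 ± 3.20 CPM and Sfrp5 at 4.61 ± 2.71 CPM (SD, n = 8). The same library had the highest summed mesothelial (645 CPM), macrophage (1740.4 CPM) and progenitor (5015 CPM) markers of the germ-free arm, and 7.80 CPM of duct markers. The part of these markers in the levels was not tested, and time and library cannot be told apart at ZT2.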

How the results depend on the processing

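Directions of the called differences (Mest and Npr3 over the day, Sfrp5 at dusk, and Sfrp5, Npr3 and Mest late at night) held in every alternative run. Over the day 1 of the 5 genes passed with an exon length offset, and 0 passed with only ZT6, ZT10 and ZT22 (1461 genes in all, against 4604). In the morning 98 genes passed with no filter, 779 with DESeq2 (1 of the 5) and 3 without libraries high in duct markers, against 184. At dusk 0 of the 5 passed with no filter and 3 with DESeq2 (2036 genes, against 1032). For the interaction DESeq2 called 328 genes and 3 of the 5, and 5 genes passed without libraries high in duct markers. Rhythms in conventional mice were called for 810 genes by DESeq2 (2 of the 5), 637 with 6-level time (1 of the 5) and 107 without libraries high in duct markers, against 165, and in germ-free mice for 2035 by DESeq2 (1 of the 5). DESeq2 called 40 genes for the difference of rhythms. Of the correlations 4 passed without the 2 farthest libraries, against 9. The 2 left out lay farthest from the median of 1 gene of each pair, so they differ between pairs.

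With 1 library left out at a time, genes called ranged from 3230 to 5062 over the day, 8 to 391 in the morning, 2 to 1751 at dusk, 706 to 3240 late at night, 0 to 4 for the interaction, 58 to 259 and 351 to 981 for rhythms in conventional and germ-free mice, 0 to 3 for their difference, and 7 to 12 for correlations. Of the 5 genes, 0 to 3 were called over the day, 0 in the morning, 0 to 1 at dusk, 1 to 4 late at night, 0 to 1 for conventional rhythms and 0 for the other tests.

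Signs turned for values that did not pass. With 1 library left out, ranges of those were -0.22 to 0.34 (Bmp3 over the day), -0.11 to 0.10 (Nkd1 over the day), -0.03 to 0.29 (Nkd1 late at night), -0.29 to 0.04 (its interaction), -0.16 to 0.01 (Mest, morning) and -0.60 to 1.14 (Sfrp5, morning). Bmp3 over the day was -0.18 without libraries high in duct markers, -0.02 without conventional ZT2 replicate 1 and -0.22 without germ-free ZT2 replicate 2. Nkd1 over the day was 0.13 with 3 times, and 0.03, 0.02, 0.10 and 0.01 without conventional ZT18 replicate 2 and germ-free ZT10 replicate 1, ZT14 replicate 2 and ZT18 replicate 2. Late at night it was -0.03 without germ-free ZT22 replicate 2, and its interaction value 0.03 and 0.04 without conventional ZT18 or germ-free ZT2 replicate 2. In the morning Mest was 0.01 without conventional ZT2 replicate 2 or germ-free ZT6 replicate 1, and Sfrp5 -0.60 without germ-free ZT2 replicate 2. Germ-free correlations with Nkd1 turned to 0.01 (Mest), -0.51 (Sfrp5), -0.74 (Bmp3) and -0.20 (Npr3) without the 2 farthest libraries. With 1 germ-free library left out they turned to -0.32 (Sfrp5), -0.28 (Bmp3), -0.13 and -0.01 (Npr3), 0.33 (Mest), and 0.30 and 0.0 (Lep), with ranges up to 0.59 (Sfrp5), 0.61 (Bmp3) and 0.37 (Npr3) and down to -0.45 (Mest) and -0.56 (Lep). The cause was not tested for these.

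With the replicate number as a replicate block, 110 genes passed in the morning and 2 of the 5 at dusk, where Mest was at -1.26 (edgeR adjusted p = 0.0449), and no other call of the 5 changed. Replicate numbers came from the titles. Differences of replicate 1 from replicate 2 had r from -0.57 to 0.505 between groups, over 36 pairs of groups. The median r was 0.167, and 21 were over 0.1. The main fits held no replicate term, and whether the numbers pair libraries was not tested further. Germ-free ZT2, ZT14 and ZT18 had replicate 2 only, so replicate and time cannot be told apart there. With 1 germ-free library at ZT2, ZT14 and ZT18, those times give no spread of their own.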
